A study of Rattus norvegicus with 4 samples.

Results

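Homeostatic microglial surface and identity genes are the transcripts by which resting microglia, the resident macrophages of the brain, are usually recognised. They were followed here as 10 genes, P2ry12, P2ry13, Gpr34, Cx3cr1, Tmem119, Sall1, Csf1r, Slc2a5, Selplg and Olfml3, matched by symbol to 10 of the 32623 genes of the matrix. Each symbol stood on a single gene. Transcripts were counted by their unique molecular identifiers (UMIs) in single cells that were isolated from the hippocampus of wild type male Sprague Dawley rats aged 10 to 12 months. The 4 titled samples were MD and DEPR, whose descriptions record chronic stress, MCAO, in which the middle cerebral artery is blocked with a filament to model stroke, and NC, the negative control. The design text instead describes 2 groups of 10 rats, both with the artery blocked and only the later stress separating them, and hippocampi of 5 rats per group. All libraries were pooled in 1 matrix whose 31638 barcodes end in the suffixes 1 to 4. No source used here says which suffix is which titled sample, so the suffixes are called barcode sets 1 to 4, each set's own value is given, and no titled samples were compared. Every interval below is an exact 95% interval for counting error only, and nothing has a replicate check.

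Microglia depend on the receptor CSF1R for survival and on TGF-beta signals and the zinc-finger factor SALL1 for their identity. Their processes survey the tissue with receptors for ADP, lysophosphatidylserine and the neuronal chemokine fractalkine. In mouse, P2RY12, TMEM119 and SALL1 are widely used to tell microglia from macrophages of the brain's borders and from blood monocytes, and several of these transcripts fall when microglia become reactive.

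After filtering, 27907 cells remained and were clustered; no member was among the 2000 genes that were used for clustering, even when members were allowed. Clusters were named from marker genes other than the members. The microglia-like class held 2784, 4069, 1787 and 3296 cells in sets 1 to 4, with a median of 4457, 4281, 6666 and 5757.5 UMIs per cell. Border macrophage-like cells were few, with 45, 26, 38 and 164, and monocyte-like cells fewer, with 22, 22, 29 and 71. Of the 12 microglial markers found in the matrix, Siglech had no UMI in the class and Crybb1 stood at 0.0831 CPM, while C1qa, C1qb, C1qc, Aif1 and Trem2 marked it. Border macrophage markers summed to 30.6 CPM (counts per 1e6 UMIs) in microglia-like cells outside the cluster led by Spp1 and to 5563 CPM in border macrophage-like cells. Libraries shared 9 to 27 barcode sequences per pair of sets, 96 barcodes in all.

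Microglia-like cells held nearly all of the members' UMIs, with a single exception. Their share was 95.8% for P2ry12, 94.3% for P2ry13, 95.8% for Gpr34, 95.6% for Cx3cr1, 95.4% for Tmem119, 84.7% for Sall1, 92.7% for Csf1r, 93.7% for Slc2a5 and 94.3% for Selplg. Olfml3 differed, with 22.8% of its 312 UMIs in microglia-like cells. A gene was called higher in microglia-like cells when its CPM was at least 2-fold that of all other named cells, with an interval above 1, in every set. By that rule 9 of 10 members were called higher, against 9.82% of the 12389 genes measured, and Olfml3 was not. Genes measured had at least 20 UMIs over both sides in every set. P2ry13 and Selplg in sets 1 to 3 and Gpr34 in set 1 reached that minimum through microglia-like cells. They had 7 to 19 UMIs in the other named cells there, so the count is a description.

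**Figure D1:**
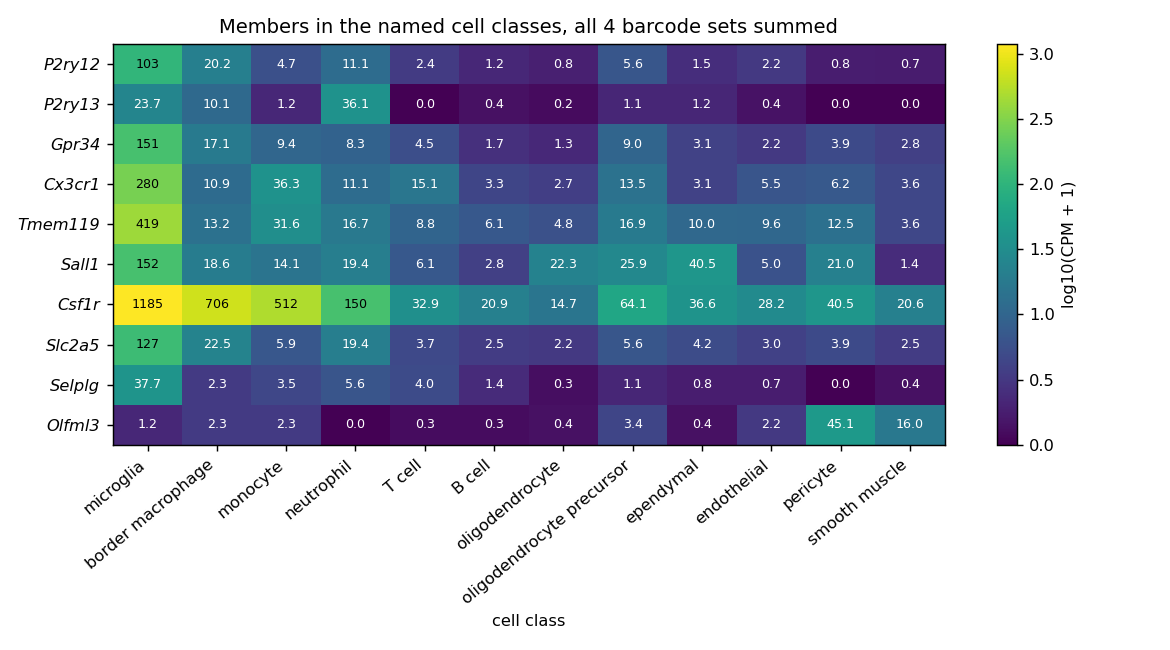
Summed CPM of the 10 members (rows) in 12 named cell classes (columns), all barcode sets together, with colour on a log10(CPM + 1) scale and the CPM printed in each cell. The microglia-like column is the highest for 8 members. P2ry13 is highest in neutrophil-like cells at 36.1 CPM, from 13 UMIs and with an uncertain order in single sets. Olfml3 is highest in pericyte-like cells at 45.1 CPM.

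Among the ADP receptors, P2ry12, the receptor that steers microglial processes towards released nucleotides, stood at 68.9, 76.6, 134 and 133 CPM in microglia-like cells of sets 1 to 4, against 1.0, 1.56, 1.58 and 2.21 CPM in all other named cells. The microglia-like value was the higher in every set, and the ratio over all sets was 63.2 (53.9 to 74.7). P2ry13, a closely related ADP receptor, stood at 11.4, 13.3, 35.3 and 34.8 CPM in microglia-like cells and at 0.319, 0.668, 0.336 and 0.932 CPM in all other named cells, a ratio of 39.9 (30.6 to 53.1). P2ry12 and P2ry13 are neighbours and both lie within the gene Med12l, which was itself 35.2-fold higher in microglia-like cells. Whether the counting used strand is not given in the sources used here, so how well it kept UMIs of these overlapping genes apart is not known.

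Gpr34, a receptor for lysophosphatidylserine, stood at 65.0, 63.3, 229 and 245 CPM in microglia-like cells, against 0.592, 1.65, 2.93 and 3.25 CPM in all other named cells. Its ratio over all sets was 69.5 (60.5 to 80.3), and the microglia-like value was the higher in every set. Gpr34 lies within Cask, so the same limit on overlapping genes applies. Cx3cr1, the receptor for fractalkine, stood at 149, 180, 362 and 414 CPM in microglia-like cells, against 1.78, 3.74, 5.04 and 6.70 CPM in the other named cells, a ratio of 62.6 (56.8 to 69.1). Tmem119, a membrane protein used as a microglial marker, stood at 317, 354, 503 and 496 CPM in microglia-like cells and at 4.33, 8.96, 6.05 and 7.66 CPM in the other named cells, a ratio of 61.2 (56.6 to 66.3).

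Slc2a5, which encodes a fructose transporter, reached 112, 99.0, 152 and 149 CPM in microglia-like cells, against 2.32, 2.94, 3.03 and 3.45 CPM in the other named cells, a ratio of 42.8 (38.0 to 48.4). Selplg, which encodes the selectin ligand PSGL-1, reached 23.9, 25.8, 50.5 and 50.3 CPM in microglia-like cells and 0.592, 0.847, 0.768 and 0.967 CPM in the other named cells, a ratio of 46.7 (37.1 to 59.5). PSGL-1 is known on most leukocytes, yet Selplg stood at only 3.98 CPM in T cell-like cells (2.23 to 6.57 CPM, 15 UMIs in 908 cells) and at 5.55 CPM in neutrophil-like cells (0.673 to 20.1 CPM, 2 UMIs). Csf1r, the receptor for CSF1 and IL-34, stood at 934, 814, 1611 and 1445 CPM in microglia-like cells and at 19.8, 26.5, 34.8 and 54.0 CPM in the other named cells, a ratio of 33.6 (32.5 to 34.8).

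The share of cells with a UMI shows how sparse these transcripts were. Csf1r was found in 90.4% of microglia-like cells and 7.61% of oligodendrocyte-like cells, a type that should lack it, at medians of 4945 and 5672 UMIs per cell. After thinning every cell to 1000 UMIs, these shares were 63.8% and 1.57%. Tmem119 was found in 72.4% of microglia-like and 2.72% of oligodendrocyte-like cells (thinned, 32.0% and 0.405%), and P2ry12 in 35.8% and 0.526% (thinned, 9.54% and 0.0946%). Thinning left out 620 microglia-like and 18 oligodendrocyte-like cells. Over all members together, 14.5% of thinned microglia-like cells had no member UMI and 23.6% had at least 3 members. By contrast 95.2% of thinned oligodendrocyte-like cells, 56.2% of border macrophage-like cells and 52.1% of monocyte-like cells had none.

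Ratios between members were compared across classes. There were 2.83 Csf1r UMIs per Tmem119 UMI in microglia-like cells (2.79 to 2.87), and close to that in oligodendrocyte-like cells at 3.09 (2.65 to 3.61) and endothelial-like cells at 2.94 (2.48 to 3.50). Border macrophage-like cells, at 53.5 (33.2 to 92.3), and monocyte-like cells, at 16.2 (11.0 to 24.8), lay far above it. Neutrophil-like cells, at 9 (3.88 to 25.6), and smooth muscle-like cells, at 5.80 (2.94 to 12.7), lay above it as well, from 6 and 10 Tmem119 UMIs. The part of free RNA in these UMIs was not tested.

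Sall1, the zinc-finger transcription factor, was the member called higher in microglia-like cells with the lowest ratio, 10.3 (9.71 to 10.9). It stood at 122, 131, 163 and 186 CPM in microglia-like cells of sets 1 to 4. In ependymal-like cells, which line the ventricles, it stood at 47.0, 36.4, 21.6 and 53.2 CPM, and in oligodendrocyte-like cells at 22.5, 18.6, 24.7 and 23.3 CPM. Microglia-like cells were highest in every set, above the other 2 classes beyond counting error. There were 0.363 Sall1 UMIs per Tmem119 UMI in microglia-like cells (0.355 to 0.372), but 4.68 (4.04 to 5.43) in oligodendrocyte-like and 4.04 (2.61 to 6.47) in ependymal-like cells. Sall1 was found in 45.9% of microglia-like and 12.3% of oligodendrocyte-like cells (thinned, 13.5% and 2.12%).

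Olfml3, a secreted olfactomedin-domain protein that serves as a microglial marker in mouse, was nearly absent from microglia-like cells at 0.402, 0.169, 2.46 and 1.88 CPM in sets 1 to 4, from 71 UMIs in 11936 cells. In all other named cells it stood at 2.55, 1.02, 2.30 and 1.73 CPM. Vessel wall cells were the highest, with 58.0, 41.7, 41.3 and 37.6 CPM in pericyte-like cells and 12.5, 8.34, 24.4 and 14.1 CPM in smooth muscle-like cells. In every set the pericyte-like interval lay above the microglia-like value, and the smooth muscle-like value lay above it too. The ratio of microglia-like to all other named cells was 0.628 (0.470 to 0.831), but it was 0.158 and 0.165 in sets 1 and 2 against 1.07 and 1.09 in sets 3 and 4, so no direction held in every set.

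P2ry13 was the other member not always highest in microglia-like cells. Neutrophil-like cells stood at 31.6, 48.8, 0 and 25.2 CPM in sets 1 to 4, from 13 UMIs in 128 cells, against 11.4, 13.3, 35.3 and 34.8 CPM in microglia-like cells. Neutrophil-like values were above in sets 1 and 2, and microglia-like values in sets 3 and 4. The neutrophil-like values came from 3, 8, 0 and 2 UMIs in sets 1 to 4, so the order in single sets is uncertain. Over all sets that gave 36.1 CPM (19.2 to 61.7) in neutrophil-like cells and 23.7 CPM in microglia-like cells, which lay inside the interval. There were 3.25 P2ry13 UMIs per P2ry12 UMI in neutrophil-like cells (1.0 to 13.7) and 0.230 in microglia-like cells (0.217 to 0.243).

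**Figure D2:**
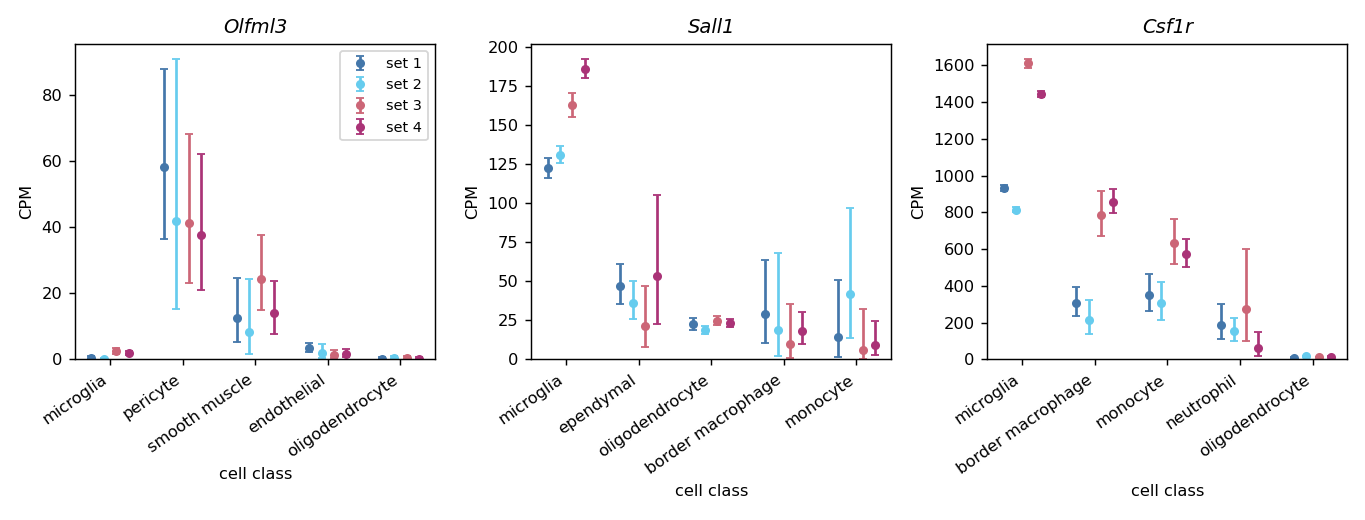
CPM of Olfml3, Sall1 and Csf1r (vertical axes from 0) in microglia-like cells and in 4 other classes each, with a point per barcode set and exact 95% counting intervals. Olfml3 is highest in pericyte-like cells of every set, Sall1 stands above 0 in oligodendrocyte-like and ependymal-like cells, and Csf1r is shared with border macrophage-like and monocyte-like cells.

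Against border macrophage-like cells, the macrophages of meninges and vessels, 6 of the 9 members measured were called higher in microglia-like cells (at least 20 UMIs over both classes in every set), where 1.54% of the 9275 genes measured were higher. These were P2ry12, Gpr34, Cx3cr1, Tmem119, Sall1 and Slc2a5. The minimum counts both classes, and all but Csf1r, with at most 18 UMIs per set in border macrophage-like cells, reached it through microglia-like cells, so the count is a description. Of the 6, Sall1 alone had a UMI in border macrophage-like cells of every set; where a set had none, the interval decided. Over all sets Tmem119 was 31.7-fold higher (19.8 to 54.5), with 419 CPM in microglia-like and 13.2 CPM in border macrophage-like cells. Cx3cr1 was 25.8-fold higher (15.4 to 47.2), and P2ry12 was 5.12-fold higher (3.49 to 7.85), with 103 and 20.2 CPM. Csf1r missed the rule: it stood at 934, 814, 1611 and 1445 CPM in microglia-like cells against 307, 217, 786 and 858 CPM in border macrophage-like cells, with ratios of 3.04, 3.75, 2.05 and 1.68. P2ry13 and Selplg had 13 and 3 UMIs in border macrophage-like cells and were not called, and Olfml3 was not measured. Only 1 member (Tmem119) was called with a stricter cell filter, 2 after thinning and 3 when single barcodes were gated by markers.

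Against monocyte-like cells, 7 of 9 measured members were called higher in microglia-like cells, where 2.36% of the 9274 genes measured were higher. They were the same 6 and Csf1r, whose ratios were 2.65, 2.65, 2.55 and 2.51 in sets 1 to 4. Cx3cr1, which non-classical monocytes are known to carry, stood at 28.2, 0, 52.2 and 43.0 CPM in monocyte-like cells, and was 7.72-fold higher in microglia-like cells (5.43 to 11.4). P2ry12 had 4 UMIs in monocyte-like cells, all in set 4, where it was 14-fold higher in microglia-like cells. In sets 1 to 3 it had none there, and was 3.26-, 3.07- and 7.68-fold higher in microglia-like cells against a floor of 3 UMIs per set. The lower limits of its intervals in these sets were 2.64, 2.49 and 6.24. Gpr34 and Slc2a5 likewise had UMIs in monocyte-like cells of set 4 alone, and Tmem119, Sall1 and Csf1r had some in every set. As above, members but Csf1r reached the UMI minimum mainly through microglia-like cells. P2ry13 and Selplg were not called, with 1 and 3 UMIs in monocyte-like cells. After thinning, which leaves 140 monocyte-like cells of 1000 UMIs, no member was called.

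Genes of the same programme were read from lists beside the members. These genes could enter the clustering, and some, such as Trem2 and P2ry6, were also among the markers, so their differences between classes are descriptions. Over all genes measured, the median log2 ratio of microglia-like to all other named cells was -0.50. Of the transcription factors, 12 of 12 measured were higher in microglia-like cells, where 9.82% of all genes measured were. Their median log2 ratio was 3.35. Cebpa, a myeloid factor, stood at 728 CPM in microglia-like and 12.3 CPM in the other named cells, Sall3, a relative of Sall1, at 12.0 and 0.297 CPM, and Spi1, the myeloid master factor PU.1, at 176 and 11.3 CPM. Against border macrophage-like cells 2 of 12 were higher, Mef2a and Cebpa, where 1.54% of all genes measured were. Against monocyte-like cells 4 of 12 were higher, with Mef2c, Maf and Cebpa among them, where 2.36% of all genes measured were.

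Of the other homeostatic genes, 13 of 16 measured were higher than in all other named cells, where 9.82% of all genes measured were. Their median log2 ratio was 4.67. Ltc4s, an enzyme of leukotriene synthesis, stood at 595 CPM in microglia-like and 10.7 CPM in the other named cells, and the lipid receptor gene Trem2 at 1136 and 23.3 CPM. Crybb1, a crystallin gene that marks microglia in mouse, was lower, at 0.0831 CPM in microglia-like and 6.34 CPM in the other named cells. Against border macrophage-like cells 10 of 15 were higher, where 1.54% of all genes measured were. Among the 10 was Trem2, at 1136 CPM in microglia-like and 261 CPM in border macrophage-like cells.

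Lists of the members' partners were read by the same rule, by which 9.82% of all genes measured were higher. They were also read by its mirror, at most 0.5-fold in every set, by which 28.6% of all genes measured were lower. The lower calls in these lists were about as frequent as that, and nothing particular to the partners is read from them. Of 7 ligands measured, Csf1 and Tgfb1 were higher in microglia-like cells, and Cx3cl1 and Tgfb2 were among the 3 that were lower. Cx3cl1, which encodes fractalkine, stood at 0.183 CPM in microglia-like and 7.54 CPM in the other named cells. Of 8 genes around purine signalling, 3 were higher: P2ry6, a UDP receptor, the ATP channel P2rx7, and Kcnk13, a potassium channel that stood at 46.8 CPM in microglia-like and 1.05 CPM in the other named cells. Adora2a, an adenosine receptor, was lower. Of 8 genes of TGF-beta dependence 4 were higher, Tgfbr1, Nrros, Skil and Smad7, and 2 lower, Itgb8 and Lrrc32. Among receptors for colony-stimulating factors and related cytokines, Csf2rb and Csf3r were higher and Il3ra and Kit lower, of 5 measured. Of 6 measured relatives and neighbours of the members' receptors, Med12l, Gpr18 and Gpr183 were higher and P2ry10 and Gpr171 lower. Of 4 sugar transporter relatives, Slc2a8 was higher and Slc2a1, the glucose transporter of vessels, lower.

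Within microglia-like cells, the members differed between barcode sets. A gene lay apart when its highest set was at least 1.5-fold above its lowest with an interval above 1 and at least 50 UMIs over both. All 9 members measured lay apart, where 35.8% of the 9682 genes measured did, and Olfml3, with 31 UMIs in that pair of sets, was not measured. The pair is chosen among 6, which makes its 95% interval too narrow. With the interval adjusted over the 6 pairs, the same 9 members lay apart, where 32.3% of all genes did.

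Gpr34 had the widest range among the 9, with 245 CPM in set 4 and 63.3 CPM in set 2, a ratio of 3.87 (3.55 to 4.23 adjusted over the pairs). P2ry13 followed at 3.09 (2.38 to 4.03) and Cx3cr1 at 2.77 (2.59 to 2.97). Selplg, Csf1r and P2ry12 spanned 2.11-, 1.98- and 1.94-fold. Tmem119, Slc2a5 and Sall1 lay near the threshold at 1.59-, 1.54- and 1.52-fold, and all 3 fell under it with TMM scaling, at 1.44-, 1.37- and 1.36-fold. Sets 3 and 4 were both above sets 1 and 2 for all 9 measured members, where 50.2% of all genes were. With TMM scaling all 9 kept that order, where 33.6% of all genes had it. Both sets were at least 1.5-fold above for 6 of the 9, where 9.46% of all genes were, and for 5 with TMM scaling, where 6.3% were, since Csf1r then reached 1.38-fold. These pairs of sets were chosen after their values were seen. The sum of all members was 1804, 1758, 3241 and 3155 CPM in sets 1 to 4, of which Csf1r alone gave 934, 814, 1611 and 1445 CPM. The share of thinned cells with at least 3 members was 12.4, 13.7, 36.2 and 37.5%.

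**Figure D3:**
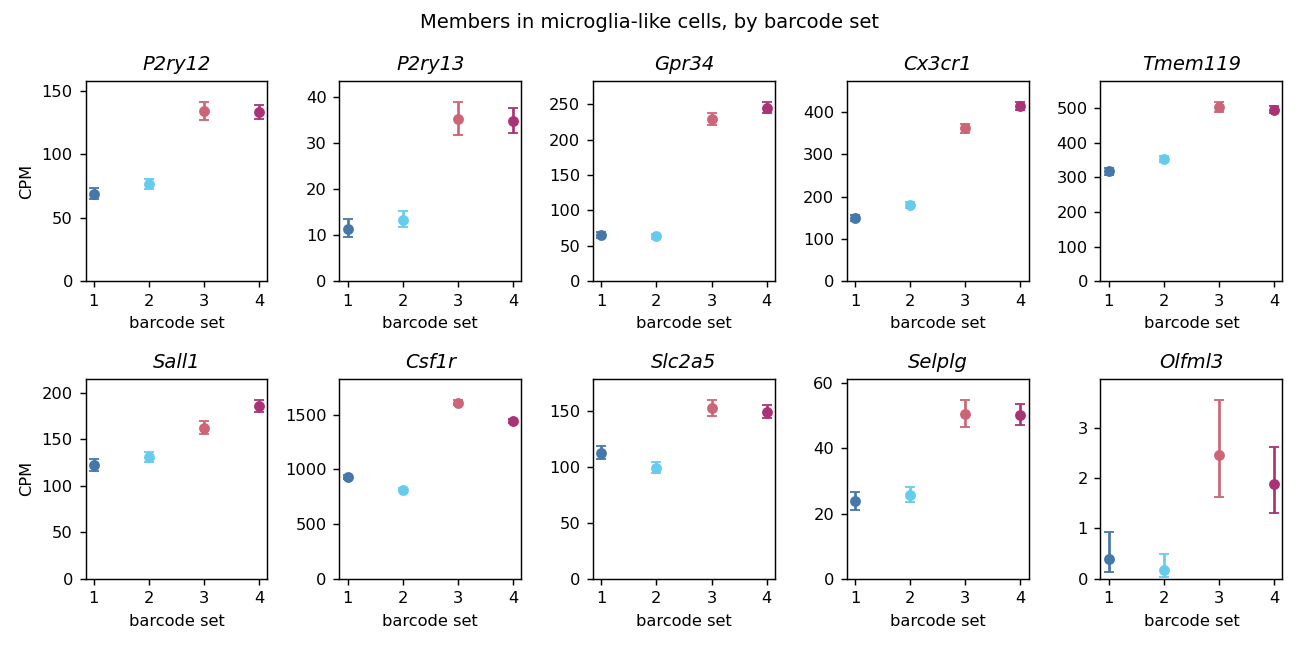
CPM of each member in microglia-like cells (vertical axes from 0), with a point per barcode set and exact 95% counting intervals. Sets 3 and 4 are above sets 1 and 2 for every member shown, with Gpr34 at 65.0, 63.3, 229 and 245 CPM.

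Other values moved with the sets. Different clusters held most of the class in each: cluster 10 had 774, 1585, 11 and 32 cells in sets 1 to 4, with clusters 11 and 13 alike, and cluster 1 had 6, 13, 641 and 1206, with clusters 25 and 30 alike. Mitochondrial UMIs were 6.14, 5.68, 4.43 and 3.37% at the median, and 9 oligodendrocyte markers summed to 305, 344, 745 and 625 CPM with none at 0. MHC class II genes, which present antigen, summed to 20815, 19496, 11476 and 10642 CPM, and C1qa, a complement subunit, stood at 8862, 9410, 4564 and 4455 CPM. The part of depth, RNA quality and RNA from other cells in the members' differences was not tested.

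Sets were also compared within a single cluster. In cluster 14, the only microglia-like cluster with at least 50 cells in every set and a low median of 1252 UMIs, 5 of 7 measured members lay apart, where 39.8% of 1801 genes did. Gpr34 stood there at 101, 83.5, 274 and 315 CPM and Csf1r at 859, 702, 1371 and 1311 CPM. Tmem119 did not lie apart in it at 1.40-fold, nor did Sall1, at 70.1, 103, 84.1 and 99.0 CPM, where set 2 was the highest. Csf1r in border macrophage-like cells stood at 307, 217, 786 and 858 CPM and in monocyte-like cells at 353, 308, 633 and 575 CPM, highest in sets 3 and 4 in both. Other values moved with the sets there too. In border macrophage-like cells, monocyte markers summed to 737, 557, 2991 and 3424 CPM and mitochondrial UMIs were 15.5, 14, 10.9 and 7.51% at the median. In monocyte-like cells, neutrophil markers summed to 2108, 8321, 52.2 and 131 CPM. Their part in the Csf1r levels was not tested.

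Promoters of the members were searched for motifs. RefSeq (assembly GRCr8) gave 6 of the 10 members a promoter of 250 bases before to 50 after the gene start, namely P2ry13, Gpr34, Cx3cr1, Csf1r, Slc2a5 and Olfml3. The purine-rich letters GAGGAA, the core bound by PU.1, were searched on both strands. They were found in 2 of these 6, Gpr34 with 1 match and Csf1r with 2, and in 27.6% of all 27457 promoters. Those 2 are shown because they hold the match; they were not chosen by their values. Capitals mark the matches, which lie on the opposite strand and so read TTCCTC here.
Gpr34: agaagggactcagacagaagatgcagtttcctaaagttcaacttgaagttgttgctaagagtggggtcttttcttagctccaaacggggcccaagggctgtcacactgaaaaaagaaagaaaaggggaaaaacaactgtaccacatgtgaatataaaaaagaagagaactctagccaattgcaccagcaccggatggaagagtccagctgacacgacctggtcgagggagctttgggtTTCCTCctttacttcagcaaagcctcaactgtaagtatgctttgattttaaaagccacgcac
Csf1r: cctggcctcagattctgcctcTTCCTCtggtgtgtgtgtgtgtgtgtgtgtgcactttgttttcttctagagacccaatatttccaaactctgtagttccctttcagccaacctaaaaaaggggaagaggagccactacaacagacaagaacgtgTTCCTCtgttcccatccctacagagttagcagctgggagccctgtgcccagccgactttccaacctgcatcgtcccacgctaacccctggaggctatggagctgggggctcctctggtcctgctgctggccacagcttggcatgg
Of the other motifs searched on both strands, GGAAGTG was in Cx3cr1 alone among the members (10.2% of all promoters) and CAGACA in Gpr34 and Csf1r (20.8%). TGANTCA and CACGTG were in none of the 6 member promoters, and in 7.39% and 6.63% of all promoters. GGAAGTG and GAGGAA share letters of the ETS core GGAA. A match describes these letters only.

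Members also varied among microglia-like cells within each set. Cluster 0, called the Spp1-led cluster, held 96, 120, 48 and 63 cells in sets 1 to 4. Its 10 leading genes were Cxcl13, Spp1, Ubd, Plvap, Rab7b, Gpnmb, Il1rn, Scimp, Bcl2a1 and Clec7a. Of these, Spp1, Gpnmb and Clec7a were on the list of disease-associated genes used below. All 9 members measured were below the other microglia-like cells in every set, where 12.9% of all genes measured were. By a rule of at most 0.67-fold with an interval below 1 in every set, 4 were called lower, where 0.955% of 9213 genes were lower. This comparison was chosen after its values were seen. The UMI minimum counts both sides. P2ry12, with 18 UMIs in the cluster in set 3, and Gpr34, with 19 in set 1, reached it there through the other microglia-like cells. P2ry13 and Selplg did so in every set, so the counts of members below and of members called lower are descriptions.

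P2ry12 stood at 32.3, 34.9, 43.1 and 47.5 CPM in the Spp1-led cluster, against 71.5, 78.5, 137 and 136 CPM in other microglia-like cells. Tmem119 stood at 120, 180, 239 and 129 CPM in the cluster, against 332, 362, 513 and 506 CPM. The cluster was below the other microglia-like cells in all 4 sets for both genes. Gpr34 stood at 22.7, 27.4, 105 and 91.1 CPM in the cluster, against 68.0, 65.0, 234 and 250 CPM. Sall1 stood at 65.8, 73.6, 64.6 and 81.2 CPM in the cluster, against 126, 134, 166 and 189 CPM. Ratios over sets were 0.314 to 0.452 for P2ry12, 0.334 to 0.450 for Gpr34, 0.254 to 0.495 for Tmem119 and 0.388 to 0.550 for Sall1.

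The other members measured did not reach the rule in every set. Csf1r, on which microglia depend, kept ratios of 0.652 to 0.727, with intervals below 1 in every set. Cx3cr1 had 0.568 to 0.815 and Slc2a5 0.713 to 0.942. P2ry13 had 0.111 to 0.808 from 2 to 12 UMIs per set, and Selplg 0.384 to 0.654 from 8 to 16.

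In the same cluster, Spp1, which encodes osteopontin, was 5.37- to 16-fold above other microglia-like cells, Fabp5, a fatty acid carrier, 12.1- to 21.0-fold and Itgax, an integrin, 12.6- to 17-fold. Gpnmb, Cd63, Lgals3, Ctsb, Axl and Clec7a were also above other microglia-like cells in every set. Gpnmb stood at 1.49-, 2.66-, 55.6- and 71.7-fold in sets 1 to 4. Apoe, the apolipoprotein, was below the other microglia-like cells in every set, at 0.399- to 0.963-fold. Ctsd was below them in sets 1 and 2, at 0.762- and 0.956-fold, and Ch25h in set 3, at 0.937-fold. Lpl had no UMI in the cluster, Cst7 had 1, and Igf1 had none in sets 1 and 2. Markers of border macrophages summed to 22.7 CPM in the cluster and 30.6 CPM in other microglia-like cells, with Mrc1, Cd163, Lyve1 and Stab1 at 0 in the cluster. Markers of monocytes summed to 3876, 3606, 1794 and 1678 CPM in the cluster in sets 1 to 4, against 2144, 2155, 2029 and 2066 CPM in other microglia-like cells, so the cluster was above in sets 1 and 2 and below in sets 3 and 4. In monocyte-like cells they summed to 23821 CPM over all sets. Median depth was 7239 UMIs per cell in the cluster and 4899 in the others. Whether monocyte-derived cells or depth had a part in the members' levels there was not tested.

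**Figure D4:**
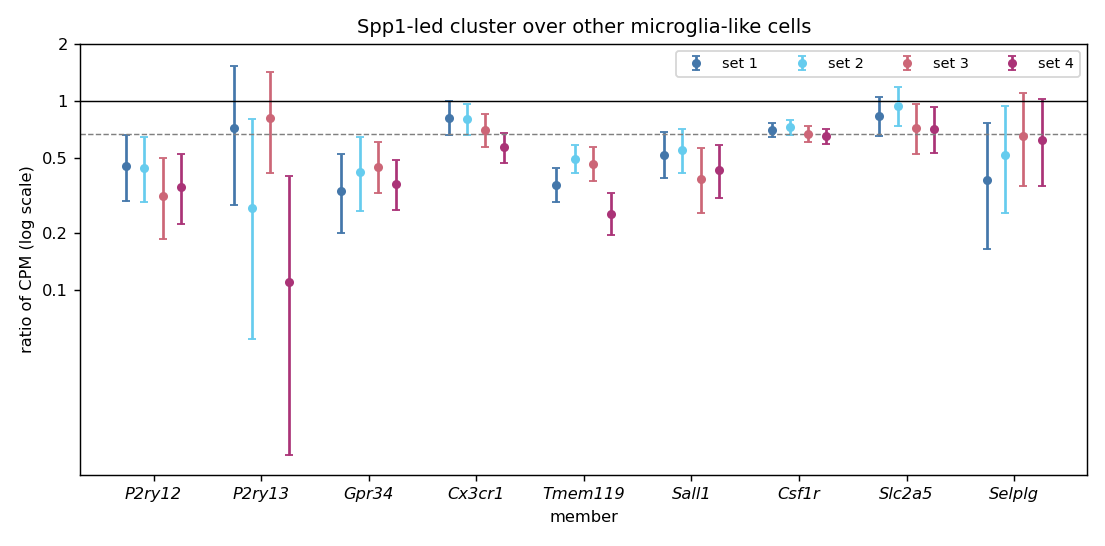
Ratio of CPM in the Spp1-led cluster to other microglia-like cells (log axis) for the 9 members measured, with a point per barcode set and exact 95% counting intervals; the solid line marks 1 and the dashed line 0.67. All points lie below 1, and P2ry12, Gpr34, Tmem119, Sall1 and Selplg lie below the dashed line in every set. The intervals of Selplg take in 1 in sets 3 and 4.

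Cells were also ranked by a list. Microglia-like cells with at least 34 of 1000 thinned UMIs in 15 disease-associated genes, a list whose UMIs come mostly from Apoe, numbered 973 of 11316. None of 9 measured members was called lower in them, a count near the background, as 0.0893% of 5599 genes were, and P2ry12 had ratios of 0.993 to 1.27. Cells with at least 37 UMIs of the MHC class II genes numbered 1073. In these cells 7 of 9 measured members were below the other cells in all 4 sets, where 13.3% of 5602 genes were, among them P2ry12 at 0.365 to 0.878 and Csf1r at 0.811 to 0.972, but none was called lower, where 0.232% of genes were. Cells rich in UMIs of the interferon, cytokine or immediate early lists gave no member called lower either. Of all genes, 0, 0.0536 and 0.357% were. The count below in all 4 sets lies outside the rule and was set against all genes for the MHC class II list alone, so it is a description. For the other lists, members below in all 4 sets were Csf1r (interferon), P2ry13 and Gpr34 (cytokine) and P2ry12 and Gpr34 (immediate early). The share of all genes was not taken for these lists, so nothing is read from them. No member was for the disease-associated list.

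Across the 48 values of 12 classes in 4 sets, the genes whose CPM went most closely with the sum of the members were Pld4 (Pearson r 0.92), Aif1 (0.91), Cebpa (0.90), Ctss (0.90) and Cst3 (0.89), of 11993 candidates, followed by P2ry6, Rgs10, Npc2, Ctsz and Lpcat2 at 0.89 to 0.88. These points share libraries and depth, and r is a description. P2ry12 was most like Kcnk13 (0.96), Slc2a5 (0.95) and Ltc4s (0.87), and Tmem119 most like Golm1 (0.86). Csf1r, the member with the most UMIs, was most like Pld4 (0.95) and Aif1 (0.94), which also led for the sum. Olfml3 stood apart, most like Vtn (0.96), Plxdc1 (0.96) and Enpep (0.95). Among the 45 pairs of members r ran between -0.23 and 0.95.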

How the data were processed

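The deposited matrix holds raw UMI counts, not normalised by the authors. It was written by Cell Ranger 5.0.0, per the file headers, and the submitters' processing notes name Cell Ranger, STAR and Rnor_6.0. No source used here gives the gene annotation, the cell calling or the strand setting. Per the labels' protocols, tissue was dissociated enzymatically and libraries were 3' droplet libraries. Barcode sets held 43640627, 46669201, 36242408 and 54295520 UMIs.

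Cells needed 500 UMIs, 300 genes and at most 20% mitochondrial UMIs. Scrublet (expected share 6%) then removed 220, 275, 135 and 342 cells, leaving 6334, 7975, 5180 and 8418 cells. Clustering used 2000 variable genes, 30 components, 15 neighbours and Leiden at resolution 2, giving 37 clusters. A cluster was named from at least 3 enriched markers, and 1867 cells stayed unnamed. These naming thresholds were set with the data in view. CPM came from UMIs summed per class and set, and ratios have exact conditional binomial (Clopper-Pearson) 95% intervals. Where a class had 0 UMIs in a set, the interval decided the call, and any fold given is against a floor of 3 UMIs per set. Calls need at least 20 UMIs over both classes in every set. Procedures were run on simulated counts that carried counting error only, without spread between cells or libraries. All members are named; of each list, genes of largest ratio. Members and lists were chosen with earlier results of these data known. Tools were scanpy 1.11.5, scipy 1.17.1, and edgeR 4.0.16 for TMM factors. Some genes of the lists are not reported here.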

Additional observations from a re-analysis of the deposited data

How the results depend on the processing

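Of 798 values of single members under alternative settings, 747 kept direction and call, 36 lost the call, 14 gained it and 1 reversed: P2ry12 against monocyte-like cells after thinning, at a log2 ratio of -0.23, where the other side had 0 UMIs and the floor of 3 UMIs set the value. The count of members called higher than in all other named cells was 9 under every setting run. Against border macrophage-like cells it was 6, and 1 with a stricter cell filter, 2 after thinning and 3 with marker-gated barcodes. Leaving out 1 set at a time gave 6 to 7. With doublets kept, no border macrophage-like cluster was named and there is no value. Against monocyte-like cells it was 7, and 0 after thinning, which leaves fewer UMIs, and 7 to 7 without 1 set. Between sets it was 9, 5 within cluster 14, where 2 members fell under the UMI minimum, 6 with TMM scaling and 7 to 9 without 1 set. No member was lower in cells rich in disease-associated UMIs under any ranking (0 to 0 without 1 set), against 4 in the Spp1-led cluster, a comparison chosen after seeing the data. Also chosen after seeing the data were the interval adjusted over pairs of sets, leaving out cluster 14, and the disease-associated list without Apoe, Cd63, Ctsb and Ctsd, which gave 9, 8 and 0 members for the comparisons they touch most. For other changes the cause was not tested. Classes were compared within each barcode set. Titled samples could not be compared because the barcode sets carry no sample labels. Olfml3 had only 71 UMIs in the 11936 microglia-like cells, too few to compare the sets there. Depth limits all members but Csf1r in border macrophage-like and monocyte-like cells.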

Other observations

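The values of the barcode sets fell into a higher and a lower pair within microglia-like cells. The members at least 1.5-fold higher in both of sets 3 and 4 were P2ry12, P2ry13, Gpr34, Cx3cr1, Csf1r and Selplg, of which Csf1r lost it with TMM scaling at 1.38-fold. P2ry12 stood at 68.9, 76.6, 134 and 133 CPM in sets 1 to 4, and at 72.3, 81.7, 127 and 125 CPM with TMM scaling. The pairs were seen in the data, are not the study's groups and were not tested.

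Axl and the complement genes were lower in sets 3 and 4 than in sets 1 and 2. Axl, a receptor for dying cells, stood at 89.1, 67.1, 8.33 and 9.78 CPM in microglia-like cells of sets 1 to 4, and the complement genes C1qb and C1qc at 6467, 6960, 3852 and 3545 CPM and at 3655, 4113, 1685 and 1588 CPM. Irf8, a microglial transcription factor, was higher in sets 3 and 4, at 215, 211, 336 and 354 CPM.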
